A study of Mus musculus with 40 samples.

Results

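The genes described here are 82 of the 55276 genes counted in E14tg2a mouse embryonic stem cells. They lost their transcripts in cells labelled DuxKO and had them again in cells labelled Ctbp_DuxTKO, which lack Dux together with Ctbp1 and Ctbp2. Counts were turned into CPM (a gene's count divided by the library's total and multiplied by 1000000) and averaged over the 2 libraries of a group. A gene was taken when its WT mean was at least 2 CPM, its DuxKO mean at most 0.25 of the WT mean and its Ctbp_DuxTKO mean at least 0.8 of it. Of 13368 genes at or above the WT minimum, 123 met the loss threshold, and 83 of those, or 67.5%, met the return threshold. Sox17 was left out by name as 1 of the 83, which gave the 82 members, and 40 lost genes did not return. These 3 groups chose the members, so their values are given as a description with no test.

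All libraries were RNA-seq of E14tg2a, an established line of mouse embryonic stem cells, grown in GMEM with fetal bovine serum and LIF. The labels do not say whether a group is 1 clone, or whether its libraries are separate cultures, so every p-value measures the spread between libraries, which may be technical. The first set of libraries, called here the genotype set, held 2 libraries each of WT, DuxKO, Dppa2KO, CtbpDKO, Ctbp_DuxTKO and a group whose labels conflict. The title of that group reads Dppa2_DuxTKO and its description reads DKO_Dppa2_KO. It is called CtbpDKO_Dppa2KO here after the description, because its libraries held 4 and 0 reads of Ctbp1 against 1911 and 2109 in WT. The second set, called the Pramel7 set, held 4 WT libraries and 2 libraries each of DuxKO, P7KO, P7OE and DuxKO_P7OE, where P7 stands for Pramel7, KO for knockout and OE for overexpression. The third set was a time course labelled CtbpDKO with Dox in the title, with 2 libraries on each of days 0, 3, 9, 12 and 18. Its descriptions read iCt2 with the day, a name that the labels do not spell out. They do not say on which days an agent was given or what it induced. Library totals were 19944644 to 36025046 counts in the genotype set, 10123058 to 30135341 in the Pramel7 set and 16674526 to 30169626 in the time course.

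The genes named in the labels were looked at before the members. For Ctbp1 the count was at most 4 reads in every library labelled CtbpDKO, Ctbp_DuxTKO or CtbpDKO_Dppa2KO and in every time-course library. Ctbp2 still had 1429 and 1568 reads in CtbpDKO and 922 and 1187 in Ctbp_DuxTKO, against 6293 and 6591 in WT. Duxf3, the gene of the Dux array that the files count, had 0 reads in all DuxKO, Ctbp_DuxTKO, Dppa2KO, CtbpDKO_Dppa2KO and DuxKO_P7OE libraries. In WT it had only 1 and 0 reads in the genotype set, so a 0 says little about the Dux label, and in CtbpDKO it had 40 and 24. Dppa2 still had 1208 and 1027 reads in Dppa2KO against 1707 and 1868 in WT, and 426 and 464 in CtbpDKO_Dppa2KO, so these counts do not check the Dppa2 label. Pramel7 had 435 and 431 reads in P7OE, 537 and 588 in DuxKO_P7OE, 2, 2, 4 and 2 in the WT libraries beside them, and 0 and 3 in P7KO. The libraries differ in depth, and as CPM Pramel7 stood at 14.4 and 25.3 in P7OE and at 48.4 and 58.1 in DuxKO_P7OE, 2.68 times as high by the means, against 0.066 to 0.172 in WT. What differs between these 2 groups in their Dux label and in their Pramel7 level therefore cannot be told apart. The low WT level leaves the P7KO label unchecked by its own transcript. The 4 WT libraries of the Pramel7 set differed among themselves more than other replicates did: between pairs of them the chi-square per gene was 30.6 to 147, against 12.9 to 43.8 between replicates of all other groups, a measure that also grows with depth. The pair of WT libraries 3 and 4 gave the lowest of these values, and WT libraries 5 and 6 differed from each other (75.4) about as much as from library 4. Counts against WT in that set are therefore also given with WT libraries 3 and 4 alone and 5 and 6 alone, alternatives chosen after the data were seen.

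Dux is a double-homeobox transcription factor that is active at the 2-cell stage of the mouse embryo and switches on genes of that stage, and a small share of cultured embryonic stem cells expresses it. Ctbp1 and Ctbp2 are corepressors that bring histone-modifying enzymes to DNA-bound repressors. Pramel7 belongs to the PRAME-like family and is known to lower DNA methylation in embryonic stem cells by targeting the methylation cofactor Uhrf1, and Dppa2 binds chromatin and supports expression of Dux and of genes with CpG-rich promoters.

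Of the members, 57 were protein coding, 9 were long non-coding RNAs, 4 were pseudogenes and 1 was a small nuclear RNA in the RefSeq table (GRCm38.p6), and 11 symbols had no match there. Runs of neighbouring members held 30 of the 82. Chromosome 4 held 14 of the members, where 6.67% of the genes at the WT minimum with a RefSeq position lay on it, and 12 lay in a single stretch of 2.032 Mb, chr4:145670697-147702631, a known cluster of zinc finger genes of the KRAB type, whose proteins bind DNA and are best known for silencing transposable elements. In order along the chromosome these were Zfp980, Zfp987, Zfp600, Zfp981, Gm21411, Rex2, Zfp978, Zfp988, Zfp982, Zfp985, Zfp979 and Zfp534. The stretch held 25 genes at or above the WT minimum, so the members were 12 of 25. Shorter runs lay at chr13:66110374-66862122 (Gm10324, Gm46427, Zfp640 and Gm10323), chr2:177086329-177773399 (Gm14401, Gm14412 and Gm14322) and chr7:30421731-30465591 (Nfkbid, Kirrel2 and Nphs1os). The imprinted neighbours Cdkn1c and Phlda2 formed a pair at chr7:143458339-143503145, and Dusp27 and Gpa33 a pair at chr1:166098148-166166510. The zinc finger genes on chromosomes 4 and 13 and the Gm genes on chromosome 2 belong to families with close copies, and reads can be split between copies, so single values in these 3 runs are uncertain. Outside the runs, 3 members with no RefSeq match ran parallel to another member across libraries, Gm44732 to Cdkn1c, AL935121.1 to Capn3 and Gm28872 to Rnu11, and may share reads with it.

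The zinc finger run on chromosome 4 also shared promoter sequence. RefSeq promoters (250 bases before to 50 bases after a gene's start, GRCm38.p6) were found for 50 members, 10 of them in this run. Between any 2 of those 10, over 45 pairs, identity was 86.0% to 100% with a median of 91.5%. A 12-base word read on the gene's strand, GGAAGCTAATTA, was in 10 of 10, and in 12 of 27025 promoters of all genes (0.0444%). It was picked from these promoters, so its count among them is a description. The sequences below are 100-base stretches from 8 of the 10. They are shown because the word sets this run apart on paper from the other members that had a promoter entry. Members without an entry could not be searched. The word is in capitals.
Zfp980, chr4:145670548-145670647, plus strand: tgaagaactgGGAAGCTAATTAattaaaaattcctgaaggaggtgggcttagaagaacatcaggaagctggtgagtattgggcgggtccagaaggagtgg
Zfp987, chr4:146097153-146097252, plus strand: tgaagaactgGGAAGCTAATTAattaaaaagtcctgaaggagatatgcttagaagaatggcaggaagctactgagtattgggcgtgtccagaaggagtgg
Zfp600, chr4:146156684-146156783, plus strand: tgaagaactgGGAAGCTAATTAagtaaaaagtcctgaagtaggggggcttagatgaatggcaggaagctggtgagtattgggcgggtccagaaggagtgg
Zfp981, chr4:146514748-146514847, plus strand: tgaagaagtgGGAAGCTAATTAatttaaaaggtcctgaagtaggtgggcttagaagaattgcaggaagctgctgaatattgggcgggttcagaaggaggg
Rex2, chr4:147021707-147021806, plus strand: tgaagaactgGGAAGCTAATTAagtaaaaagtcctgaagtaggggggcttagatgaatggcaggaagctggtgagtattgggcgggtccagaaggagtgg
Zfp988, chr4:147305482-147305581, plus strand: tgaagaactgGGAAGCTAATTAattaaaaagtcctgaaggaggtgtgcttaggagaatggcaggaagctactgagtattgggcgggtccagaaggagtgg
Zfp979, chr4:147642558-147642657, minus strand: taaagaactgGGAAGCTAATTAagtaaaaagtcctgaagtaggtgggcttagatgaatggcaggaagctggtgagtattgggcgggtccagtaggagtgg
Zfp534, chr4:147702646-147702745, minus strand: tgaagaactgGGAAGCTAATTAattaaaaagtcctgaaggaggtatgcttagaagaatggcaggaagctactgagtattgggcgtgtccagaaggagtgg
Each is written 5' to 3' on the gene's strand, and the word began 104 to 162 bases before the start that the promoter table uses. For Rex2 and Zfp981 that start lies inside the outer bounds of the annotated gene. A longer word, AACTGGGAAGCTAATT, was in 9 of the 10 and in 9 promoters of all genes (0.0333%). The 2 genes outside the members that carried the shorter word were Gm13212 and Zfp984, whose values are given with the Pramel7 set.

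Other motifs did not set the members apart by their shares. The E-box CACCTG, searched on both strands like the other motifs, was in 13 of 50 member promoters (26.0%) and in 22.6% of all promoters. The E-box CACGTG was in 1 of 50 (2.0%) against 8.09%, and CCAAT was in 22 of 50 (44.0%) against 41.1%, including all 10 of the chromosome 4 run. Those 10 are near copies of each other (86.0% to 100% identity), so they are not separate cases. Motif shares were not taken over expressed genes alone. A Dux-type motif was in 0 of 50 and in 0.0407% of all promoters, too rare to compare. Members had a median of 6 CpG dinucleotides in the 300 bases, against 22 for the 9008 genes with a promoter entry at or above the WT minimum. At least 15 CpG were in 28.0% of member promoters and in 74.5% of those of that expressed group. Over all 27025 promoters, most of them of genes below the WT minimum, the median was 7 and the share 35.2%, close to the members' values.

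In the genotype set, the DuxKO mean of the members was 0.04 to 0.244 of the WT mean, with a median of 0.182. In 81 of 82 members both DuxKO libraries lay below both WT libraries, as in 33.4% of all genes at the WT minimum. The Ctbp_DuxTKO mean was 0.814 to 15.7 times the WT mean, with a median of 1.52, where the median over all genes at the WT minimum was 0.941. It was at least 2 times the WT mean for 24 members, where 4.57% of all genes at the WT minimum were. In 56 members both Ctbp_DuxTKO libraries lay above both WT libraries, as in 26.5% of those genes. The rule used these contrasts, so nothing is read from the counts. Just inside the loss threshold lay Gm15587 and Platr30 at 0.242 each and Kbtbd11 at 0.244, and just outside it lay Cd38 at 0.25, Ahnak2 at 0.252 and Zfp990 at 0.254. Just inside the return threshold lay Tmem81 at 0.814, Platr30 at 0.826 and Gm46427 at 0.836, and just outside it lay Trap1a at 0.799, Gm7972 at 0.754 and Gm14418 at 0.737. Near the expression minimum, Themis at 2.003 CPM, Gm46332 at 2.061 CPM and Trim63 at 2.133 CPM in WT were inside, and 2900041M22Rik at 1.9, Olfr986 at 1.888 and Gm13110 at 1.881 CPM were outside.

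**Figure D1:**
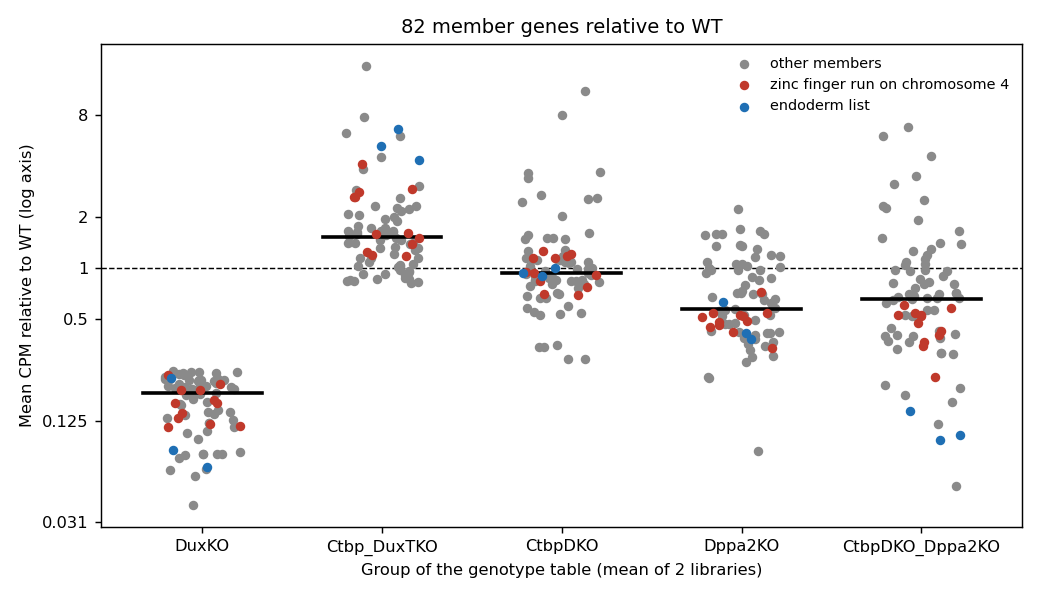
Mean CPM of each member in 5 groups of the genotype set relative to its WT mean, on a log axis, with 1 point per member and a black bar at the median. Red points are the 12 zinc finger genes of the chromosome 4 run, blue points the 3 members of the endoderm list and grey points the other 67. DuxKO points lie at 0.244 or below and Ctbp_DuxTKO points at 0.814 or above because the rule chose them so.

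The 12 zinc finger genes of the chromosome 4 run were chosen by their WT, DuxKO and Ctbp_DuxTKO values, so their shared loss and return is a description. Genes of the stretch outside the members went both ways in DuxKO. From WT to DuxKO the mean of Gm13237 went from 345 to 573 CPM and that of Zfp991 from 7.47 to 3.82. Rex2 had 39.3 and 31.9 CPM in WT, 4.32 and 5.52 in DuxKO and 89.1 and 97.9 in Ctbp_DuxTKO. Zfp600 had 33.5 and 25.6 CPM in WT, 3.29 and 6.12 in DuxKO and 78.7 and 94.0 in Ctbp_DuxTKO. For both genes all 3 groups were apart, and the cells without Dux and Ctbp stood highest. Over the 12 genes the ratio to WT was 0.115 to 0.232 in DuxKO and 1.18 to 4.12 in Ctbp_DuxTKO, with 5 of 12 at 2 times WT or more. In CtbpDKO, with Dux in place, their means were 0.69 to 1.26 times the WT mean. These means cover 2 unlike libraries, with Rex2 at 31.5 and 50.1 CPM and Zfp600 at 24.2 and 50.5. In Dppa2KO they stood at 0.338 to 0.716 and in CtbpDKO_Dppa2KO at 0.227 to 0.601 of the WT mean.

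The imprinted pair on chromosome 7 showed the same loss. Cdkn1c, which encodes the cell cycle inhibitor p57 and is expressed from the maternal copy, had 28.6 and 30.9 CPM in WT, 3.75 and 3.75 in DuxKO and 28.3 and 32.1 in Ctbp_DuxTKO. Phlda2, a maternally expressed gene that restrains placental growth, had 5.03 and 4.73 CPM in WT, 0.664 and 0.669 in DuxKO and 11.9 and 10.9 in Ctbp_DuxTKO. Cdkn1c thus came back to its WT level and Phlda2 above it. In CtbpDKO the pair parted: Cdkn1c stood at 10.6 and 9.72 CPM, below both WT libraries, and Phlda2 at 7.47 and 7.85, above both. The third imprinted member of a list of 36, Nnat, a paternally expressed gene on chromosome 2, had 2.62 and 3.29 CPM in WT, 0.465 and 0.769 in DuxKO and 3.76 and 2.64 in Ctbp_DuxTKO.

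Among single genes, Lncenc1, a long non-coding RNA of embryonic stem cells at chr13:97434970-97497664, had 29.7 and 30.3 CPM in WT, 1.99 and 2.78 in DuxKO and 45.8 and 71.8 in Ctbp_DuxTKO. Clstn3, a synaptic adhesion protein of the calsyntenin family, had 10.7 and 14 CPM in WT, 1.30 and 1.67 in DuxKO and 13.6 and 14.5 in Ctbp_DuxTKO. Crmp1, a cytoskeletal protein of growing axons, had 20.3 and 27.7 CPM in WT, 5.48 and 5.79 in DuxKO and 46.0 and 61.1 in Ctbp_DuxTKO. In each of the 3 the DuxKO libraries lay below every WT and Ctbp_DuxTKO library, in groups that the rule used. Both DuxKO libraries lay below both WT libraries in 81 of 82 members, and in 33.4% of all genes at the WT minimum. Gm20900 is a member of another kind: it had 304 and 9.11 CPM in the 2 WT libraries, 9.13 and 11.2 in DuxKO and 238 and 276 in Ctbp_DuxTKO, so its place among the members rests on 1 WT library. It was as uneven in CtbpDKO, with 8.91 and 292 CPM, on day 0, with 19.15 and 376, and in P7KO, with 93.9 and 2.53.

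Of 20 lists of genes for cell states and pathways, 3 held members. Primitive and visceral endoderm held 3 of its 29 genes, imprinted genes 3 of 36, and epithelial and keratin genes 1 of 29, which was Krt17. The list of 28 genes of the 2-cell state held 0 members, but only 3 of the 27 counted reached the WT minimum of the rule, so most could not have been chosen. In DuxKO of the Pramel7 set, 8 of the 17 of them that were tested fell, where 8.91% of all genes tested fell. The size of their median log2 fold change, -4.41, is uncertain, because 20 of the 27 counted had 0 reads in both DuxKO libraries. The 3 endoderm genes were Cubn, the endocytic receptor cubilin, Dab2, an endocytic adaptor, and Srgn, the core of the proteoglycan serglycin. Cubn had 19.8 and 13.7 CPM in WT, 0.963 and 1.84 in DuxKO and 118 and 105 in Ctbp_DuxTKO, and Dab2 had 19.2 and 15.6, 4.12 and 3.65, and 67.7 and 83.9 in the same order. Their Ctbp_DuxTKO levels were 4.37 to 6.68 times WT, counting Srgn. The summed level of all 29 genes of the endoderm list moved alongside, at 1172 to 1226 CPM in WT, 813 to 851 in DuxKO, 1148 to 1219 in CtbpDKO and 2480 to 2652 in Ctbp_DuxTKO. The endoderm factor Gata6 had 2.15 and 2.16 CPM in WT, 0.502 and 1.44 in DuxKO and 11.3 and 11.4 in Ctbp_DuxTKO, while Afp, a marker of later visceral endoderm, was at 0 in every WT and DuxKO library and at 0 and 0.505 CPM in Ctbp_DuxTKO. Apoe, an apolipoprotein on the same list, went the other way, with 302 and 359 CPM in WT and 82.6 and 88.1 in Ctbp_DuxTKO. In bulk libraries more cells of a type and more RNA per cell cannot be told apart, and the part of such cells in these levels was not tested.

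Comparisons of CtbpDKO, Dppa2KO and CtbpDKO_Dppa2KO with WT share the WT libraries that chose the members and are given as values only. Loss of Ctbp alone left most members near WT: the median ratio was 0.93, against 0.997 over all genes at the WT minimum. At most 0.5 of the WT mean was reached by 5 members in CtbpDKO, where 4.44% of all genes were, and at least 2 times the WT mean by 10 members, where 3.97% of all genes were. In 70 of 82 members the mean was higher in Ctbp_DuxTKO than in CtbpDKO, as in 39.1% of all genes, where Ctbp_DuxTKO also chose the members. In Dppa2KO the members leaned down, with a median of 0.573 against 1.006, and 30 members at 0.5 of WT or less against 3.29% of all genes. Only 1 member stood at 2 times WT or more in Dppa2KO, against 0.756% of all genes: Gpa33, with 31.2 and 23.4 CPM against 10.9 and 13.6 in WT, named after its values were seen. In CtbpDKO_Dppa2KO the median was 0.653 against 0.891, with 28 members at 0.5 or less (8.88% of all genes) and 8 at 2 times or more (2.73%).

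The 10 members at 2 times WT or more in CtbpDKO were a different group from the zinc finger genes. They were Lgals3, Plaur, Gm10800, Krt17, Spn, Aire, Myo1g, Spata31d1b, Slc17a9 and Gpx2, a set formed after the values were seen. Gpx2, a glutathione peroxidase of epithelia, had 2.48 and 2.57 CPM in WT, 0.266 and 0.134 in DuxKO, 28.2 and 28.0 in CtbpDKO and 34.5 and 44.8 in Ctbp_DuxTKO. Myo1g, a membrane myosin of blood cells, had 3.94 and 4.42 CPM in WT, 0.864 and 1.07 in DuxKO, 32.7 and 34.1 in CtbpDKO and 28.2 and 37.5 in Ctbp_DuxTKO. Aire, the autoimmune regulator of the thymus, had 4.11 and 4.69 CPM in WT, 0.664 and 0.702 in DuxKO, 14.7 and 15.1 in CtbpDKO and 27.4 and 25.8 in Ctbp_DuxTKO. In these genes both groups without Ctbp stood above WT, and DuxKO below it.

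The cells that lack Dux were sequenced again in the Pramel7 set, in 2 libraries that the rule did not use, although the labels do not say whether they come from another line. Of the 81 members counted there (Pqlc1 was not listed in it), 63 fell in DuxKO against the 4 WT libraries, where 8.91% of the 20161 genes tested fell (edgeR's quasi-likelihood test, called where p, adjusted by Benjamini-Hochberg over all genes, was under 0.05). The members' median log2 fold change was -1.98, against -0.01 over all genes. No member rose, where 7.76% of all genes did; at an unadjusted p under 0.05 the count was also 0, and DESeq2 called 0. All DuxKO libraries lay below all WT libraries in 71 members, as in 18.7% of all genes tested. They lay above all WT libraries in 2, Gm28872 and Rnu11, which may share reads, and 7 members had a fitted change above 0. The shares over all genes were not taken for these last counts. The mean was at most 0.25 of WT in 45 members, as in 5.02% of all genes. Against WT libraries 3 and 4 alone 63 members fell and 1 rose, and against 5 and 6 alone 64 fell and 0 rose.

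The chromosome 4 run fell whole in this second measurement. All 12 of its genes fell. Their log2 fold changes lay between -3.74 and -2.02, and the median was -3.04. Rex2 had 37.7, 40.7, 62.0 and 54.1 CPM in WT and 5.49 and 4.23 in DuxKO, a log2 fold change of -3.23 ± 0.20 (SE, n = 4 and 2, edgeR adjusted p = 9.04e-07). Of the 28 tested genes of the stretch that were not members, 9 fell and 2 rose, with a median of -0.36. The imprinted pair fell further than the median of the run: Cdkn1c had 79.5, 88.4, 79.8 and 98.8 CPM in WT and 3.04 and 3.59 in DuxKO (-4.63 ± 0.18, edgeR adjusted p = 3.97e-08). Phlda2 had 10.1, 14.9, 15.3 and 16 CPM against 0.392 and 0.569 (-4.75 ± 0.26, edgeR adjusted p = 7.47e-07). No WT library of either gene came near a DuxKO library. The WT level of both was higher here than in the genotype set, where the WT means were 29.8 CPM for Cdkn1c and 4.88 for Phlda2. The sets were scaled separately.

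The furthest fall among the members was that of Lncenc1, with 187, 186, 262 and 98.8 CPM in WT and 3.38 and 4.70 in DuxKO (-5.41 ± 0.37, edgeR adjusted p = 1.79e-06). Clstn3 went from 32.8, 30.7, 26.0 and 22.8 CPM to 0.539 and 1.67 (-4.56 ± 0.33, edgeR adjusted p = 2.68e-06), and Aire from 6.58, 11.0, 13.0 and 11.7 CPM to 0.981 and 0.498 (-3.77 ± 0.38, edgeR adjusted p = 3.31e-05). The WT levels of Lncenc1, Clstn3 and Aire were also higher here than in the genotype set, which was scaled separately. All 10 members raised in CtbpDKO fell as well. The endoderm genes did not repeat their loss. Cubn had 0.664, 0.478, 2.15 and 2.45 CPM in WT here and 1.57 and 2.13 in DuxKO (0.50 ± 0.50, edgeR adjusted p = 0.548), and Dab2 had 3.06, 4.34, 2.84 and 3.39 CPM against 4.22 and 3.77 (0.30 ± 0.24, edgeR adjusted p = 0.442). Their WT levels in this set were below those of the genotype set before any comparison, in sets that were scaled separately. Nnat did not pass the test either, with 3.29, 3.23, 2.54 and 2.5 CPM against 1.62 and 1.21 (-0.97 ± 0.34, edgeR adjusted p = 0.0724).

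Most of the members were higher in cells without Dux when Pramel7 was overexpressed. In DuxKO_P7OE against DuxKO, 67 of 81 members rose, where 11.6% of all genes tested rose, and the median log2 fold change was 2.58 against -0.03 over all genes. All 81 fitted changes were above 0, as were 48% over all genes, and all DuxKO_P7OE libraries lay above all DuxKO libraries in 74 members, as in 34.1% of all genes. The count that fell was 0, where 9.83% of all genes fell, with 0 also at an unadjusted p under 0.05 and by DESeq2. This comparison and the one before share the 2 DuxKO libraries, and low readings there enter both. The mean of DuxKO_P7OE against WT, which leaves those libraries out, had a median ratio of 1.16 and was at least 0.8 in 63 members, or 77.8%, where 67.5% of all genes tested were.

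**Figure D2:**
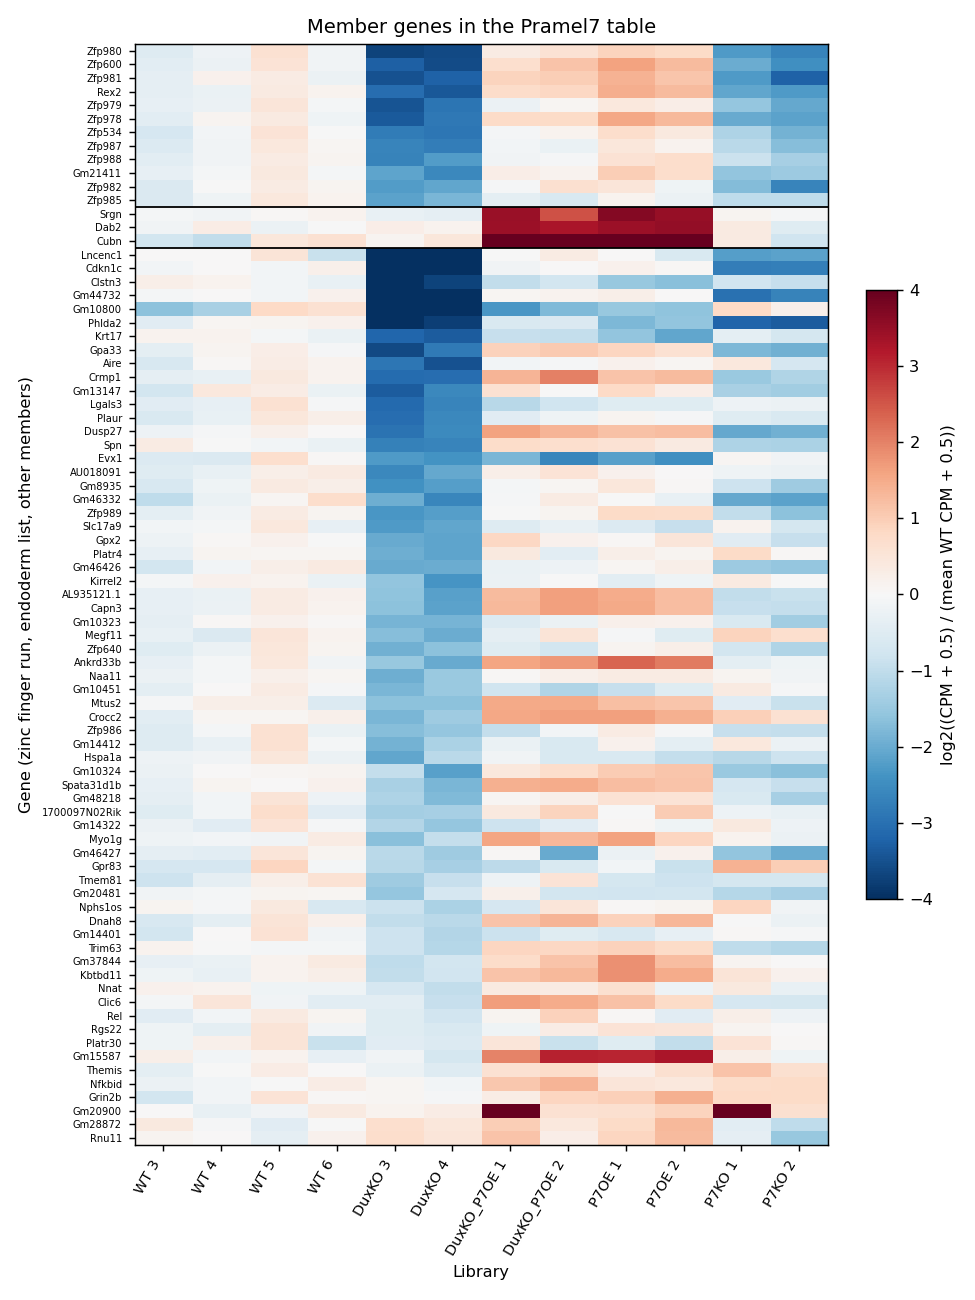
Each row is a member and each column a library of the Pramel7 set. Colour gives the log2 ratio of CPM plus 0.5 to the mean WT CPM plus 0.5, with the scale ending at -4 and 4; black lines part the zinc finger run, the endoderm list and the other members. The 2 DuxKO columns are below WT for most rows, and the DuxKO_P7OE libraries all stand above the DuxKO libraries for 74 of 81 members (34.1% of all genes).

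Rex2 stood at 81.2 and 87.3 CPM in DuxKO_P7OE against 5.49 and 4.23 in DuxKO, a log2 fold change of 4.01 ± 0.22 (n = 2 and 2, edgeR adjusted p = 2.36e-07), and above each of the 4 WT libraries. Zfp981 stood at 29.0 and 31.1 CPM against 0.932 and 1.21 (4.70 ± 0.30, edgeR adjusted p = 7.45e-07). All 12 genes of the run rose, with a median of 3.12 and DuxKO_P7OE means at 0.7 to 1.95 times WT. Of the 28 tested non-members in the same stretch, 12 rose and 1 fell, with a median of 1.31. The 2 other carriers of the promoter word differed from each other: Gm13212 fell in DuxKO (-1.11, edgeR adjusted p = 0.0302) and rose in DuxKO_P7OE (1.55, edgeR adjusted p = 0.00938), while Zfp984 fell in DuxKO (-0.64, edgeR adjusted p = 0.0243) and gave -0.08 in DuxKO_P7OE (edgeR adjusted p = 0.82).

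**Figure D3:**
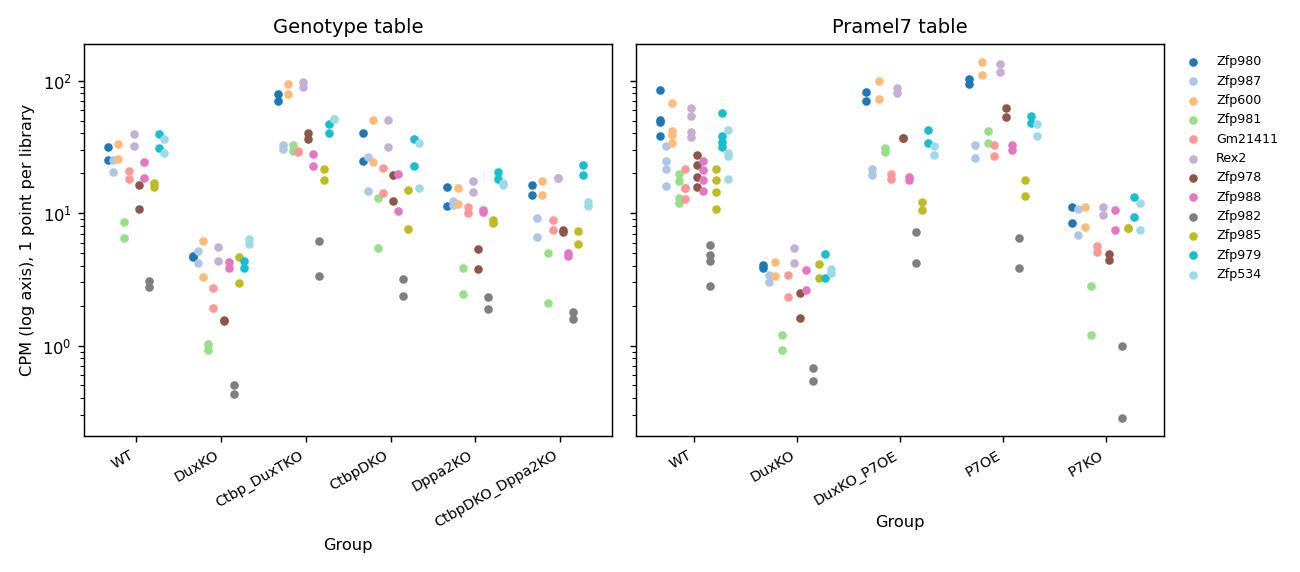
CPM of the 12 zinc finger members of the chromosome 4 run by group, on a log axis, with 1 point per library and 1 colour per gene in order along the chromosome; the left panel is the genotype set and the right panel the Pramel7 set. In the right panel the DuxKO mean of each gene is its lowest, P7KO is next, and DuxKO_P7OE means lie at 0.7 to 1.95 times the WT mean.

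Cdkn1c stood at 78.6 and 88.4 CPM in DuxKO_P7OE, where its 4 WT libraries ran from 79.5 to 98.8, after 3.04 and 3.59 in DuxKO (4.55 ± 0.19, edgeR adjusted p = 5.04e-08). Lncenc1 stood at 183 and 229 CPM, inside its WT range (5.57 ± 0.38, edgeR adjusted p = 1.32e-06), and Phlda2 at 9.11 and 9.29 CPM, just below its lowest WT library (4.13 ± 0.28, edgeR adjusted p = 1.06e-06). Crmp1 and the neighbours Dusp27, an atypical phosphatase, and Gpa33, a surface antigen, went past WT. Crmp1 had 13.1, 13.6, 22.6 and 18.7 CPM in WT, 1.57 and 1.60 in DuxKO and 44.0 and 69.6 in DuxKO_P7OE (5.06 ± 0.29, edgeR adjusted p = 4.65e-07). Dusp27 had 19.4, 21.4, 25.8 and 22.9 CPM in WT, 2.45 and 3.42 in DuxKO and 68.6 and 57.7 in DuxKO_P7OE (4.33 ± 0.19, edgeR adjusted p = 5.04e-08), and Gpa33 changed by 4.34 ± 0.23 (edgeR adjusted p = 2.21e-07). The 14 members that did not pass included Evx1, a homeobox gene of the posterior embryo, with 1.13 and 0.996 CPM in DuxKO and 1.71 and 0.79 in DuxKO_P7OE (0.16 ± 0.49, edgeR adjusted p = 0.851), and Rnu11, the RNA of the minor spliceosome (0.10 ± 0.51, edgeR adjusted p = 0.916). Of the 3 genes of the chromosome 2 run, Gm14401 and Gm14322 were also among those 14.

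With Dux in place, Pramel7 overexpression moved fewer members. In P7OE against WT 30 of 81 rose, where 11% of all genes rose, and 6 fell, where 8.9% of all genes fell, with a median log2 fold change of 0.36. Against WT libraries 3 and 4 alone 32 rose and 5 fell, and against 5 and 6 alone 30 rose and 9 fell. In the chromosome 4 run 7 of 12 genes rose, with a median of 0.76, and 12 of the 28 tested non-members of the stretch rose too, with a median of 0.91. The members that rose included Rex2, with 133 and 117 CPM (1.36 ± 0.15, edgeR adjusted p = 8.32e-05). Ankrd33b, an ankyrin repeat gene, went from 4.22, 5.10, 7.43 and 4.86 CPM in WT to 28.9 and 24.3 (2.30 ± 0.20, edgeR adjusted p = 1e-05). The 6 that fell were Clstn3, Evx1, Gm10451, Krt17, Phlda2 and Slc17a9. Evx1 went from 4.88, 4.82, 12 and 7.71 CPM to 1.26 and 0.938 (-2.69 ± 0.38, edgeR adjusted p = 0.000425) and Phlda2 from 10.1 to 16 CPM across WT to 3.68 and 4.4 (-1.80 ± 0.20, edgeR adjusted p = 6.31e-05). The test of the difference between the effects of Pramel7 overexpression without and with Dux was added after the data were seen. It was past the threshold in 50 members, all with the more positive change without Dux. Of all genes, 4.27% were past it in that direction and 3.23% the other way. The change in DuxKO against WT, with a median of -1.98 over the members, enters this difference with its sign turned. The rule chose the members by such a fall in other libraries, so the count partly restates that choice. A fall with Dux in place also enters this difference, as for Phlda2 (-1.80 in P7OE against WT). The count was 52 with WT libraries 3 and 4 alone, where 1 member went the other way, and 53 with 5 and 6 alone. The overexpressed level of Pramel7 was higher in DuxKO_P7OE (53.2 CPM on average) than in P7OE (19.9), so the 2 backgrounds differ in Dux label and Pramel7 level at once, which cannot be told apart here. Phlda2 was thus lower than WT when Pramel7 was raised with Dux, and higher than DuxKO when it was raised without Dux, while Cdkn1c beside it stayed at 98.5 and 88.6 CPM in P7OE (0.09 ± 0.14, edgeR adjusted p = 0.677). Between the 2 groups that overexpressed Pramel7, the ratio of the DuxKO_P7OE mean to the P7OE mean had a median of 0.89, a comparison that was not tested and whose groups also differ in Pramel7 level. Dusp27 had 51.1 and 52.9 CPM in P7OE and 68.6 and 57.7 in DuxKO_P7OE, and Spn, the sialoglycoprotein CD43, 12.9 and 10.9 against 14.4 and 13.7.

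**Figure D4:**
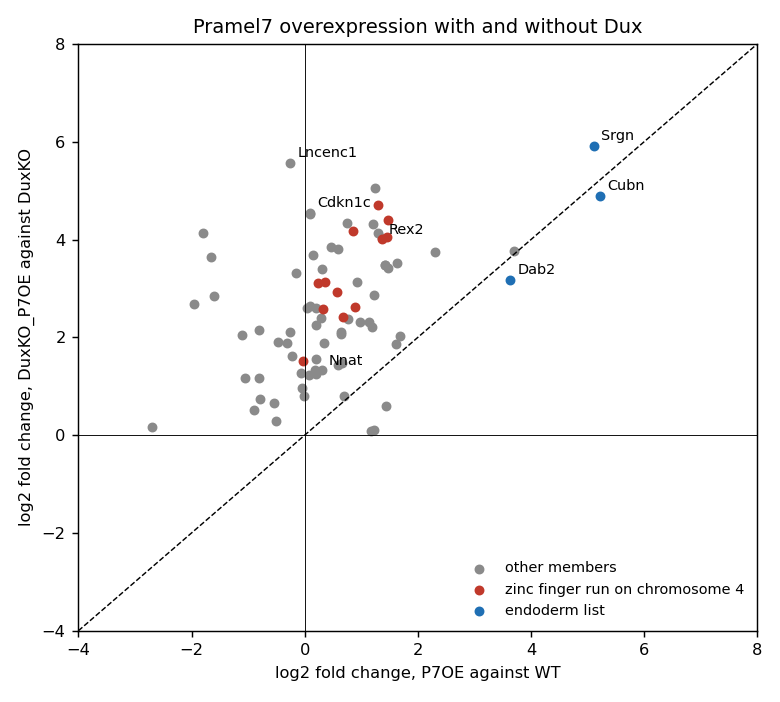
Fitted log2 fold change of 81 members on Pramel7 overexpression, with Dux in place on the horizontal axis (P7OE against WT) and without Dux on the vertical axis (DuxKO_P7OE against DuxKO); red points are the zinc finger run, blue points the endoderm list, and the dashed line marks equal change. All 81 points lie above 0 on the vertical axis, and the 3 blue points lie near the dashed line, with Cubn at 5.23 and 4.90.

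The 3 endoderm genes rose with Pramel7 in both backgrounds. Cubn stood at 48.7 and 55.7 CPM in P7OE (5.23 ± 0.41 against WT, edgeR adjusted p = 5.54e-06) and 57.1 and 62.2 in DuxKO_P7OE (4.90 ± 0.54 against DuxKO, edgeR adjusted p = 6.27e-05). Dab2 stood at 41.6 and 44.1 CPM (3.64 ± 0.21, edgeR adjusted p = 5.27e-07) and 41.0 and 36.7 (3.18 ± 0.28, edgeR adjusted p = 9.4e-06). Srgn, with 2 and 2 reads in DuxKO, is given as 8.76 and 7.62 CPM in P7OE and 7.48 and 3.75 in DuxKO_P7OE, with no fold. Of the 26 tested genes of the endoderm list, 19 rose in each of the 2 comparisons, 2 fell in P7OE and 1 in DuxKO_P7OE. The summed level of all 29 was 807 to 1387 CPM in WT, 690 to 828 in DuxKO, 950 to 977 in P7KO, 2053 to 2083 in P7OE and 1905 to 1914 in DuxKO_P7OE. Gata6 had at most 1.49 CPM in the DuxKO libraries and 5.68 and 8.49 in DuxKO_P7OE, and Afp was at 0 in both groups and at 0.199 and 0.059 CPM in P7OE. The part of these endoderm transcripts in the members' levels was not tested.

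A large share of the members was lower in P7KO. In P7KO against WT, 41 of 81 fell, where 5.55% of all genes tested fell, and 2 rose, where 3.93% rose, with a median log2 fold change of -1.11. This count rested on both P7KO libraries: without the first it was 24 and without the second 25. Against WT libraries 3 and 4 alone 44 fell and 7 rose, and against 5 and 6 alone 41 fell and 1 rose. The 2 that rose were Crocc2 and the uneven Gm20900. All 12 zinc finger genes of the chromosome 4 run fell, with a median of -2.14, where of the 28 tested non-members of the stretch 4 fell and 2 rose. Rex2 stood at 11.2 and 9.71 CPM (-2.35 ± 0.18, edgeR adjusted p = 9.11e-06) and Zfp980 at 11.1 and 8.43, after 38.4, 48.5, 84.7 and 50.5 in WT (-2.63 ± 0.21, edgeR adjusted p = 1.15e-05). Both lay between DuxKO and WT.

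Outside the run 29 of 69 members fell. Phlda2 had 1.06 and 0.961 CPM in P7KO (-3.92 ± 0.23, edgeR adjusted p = 7.75e-07), Cdkn1c 12.2 and 12.6 (-2.95 ± 0.16, edgeR adjusted p = 3.37e-07), Lncenc1 39.4 and 40.9 (-2.32 ± 0.30, edgeR adjusted p = 0.000368) and Dusp27 5.07 and 5.55 (-2.21 ± 0.16, edgeR adjusted p = 3.6e-06). These genes thus fell with either knockout, and each was lower in DuxKO than in P7KO. Several members that fell in DuxKO did not pass the test in P7KO. AU018091 had 40.5, 46.1, 66.6 and 71.7 CPM in WT, 9.07 and 13.1 in DuxKO and 49.4 and 47.6 in P7KO (-0.34 ± 0.18, edgeR adjusted p = 0.285). Lgals3, the sugar-binding protein galectin-3, had 24.1, 26.0, 50.5 and 31.9 CPM in WT, 3.43 and 4.94 in DuxKO and 29.0 and 28.3 in P7KO (-0.33 ± 0.20, edgeR adjusted p = 0.359). Aire had 14.3 and 6.37 CPM in P7KO (-0.18 ± 0.28, edgeR adjusted p = 0.748). The difference between the DuxKO and P7KO effects was not tested for these genes.

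In cells that carry the Dppa2 and Ctbp labels together, 2 groups of members parted. Against Dppa2KO, 20 of 82 members rose in CtbpDKO_Dppa2KO and 15 fell, while 15.2% of the 21193 genes tested rose and 15.2% fell, with a median log2 fold change of -0.06. The share falling, 15 of 82, is close to that of all genes. All 10 members that stood at 2 times WT or more in CtbpDKO rose again here, between 0.83 and 3.06 on the log2 scale. Aire went from 7.47 and 6.52 CPM in Dppa2KO to 32 and 27.7 (2.19 ± 0.12, edgeR adjusted p = 4.73e-08), Myo1g from 6.40 and 4.83 to 28.4 and 21.9 (2.25 ± 0.15, edgeR adjusted p = 1.67e-07) and Spata31d1b from 1.35 and 1.33 to 11.3 and 9.70 (3.06 ± 0.20, edgeR adjusted p = 1.71e-07). The zinc finger run hardly moved, with 1 of 12 higher and 1 lower, Zfp988 (-1 ± 0.23, edgeR adjusted p = 0.00557), and a median of -0.01. Rex2 had 14.4 and 17.6 CPM in Dppa2KO and 18.3 and 18.5 in CtbpDKO_Dppa2KO (0.30 ± 0.18, edgeR adjusted p = 0.251). Cdkn1c fell from 12.4 and 12.4 CPM to 5.72 and 5.91 (-0.99 ± 0.13, edgeR adjusted p = 9.24e-05), while Phlda2 rose from 1.69 and 2.03 to 3.61 and 3.83 (1.10 ± 0.20, edgeR adjusted p = 0.00112).

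Against CtbpDKO, 27 members fell in CtbpDKO_Dppa2KO, where 9.67% of all genes fell, and 5 rose, where 5.75% rose, with a median of -0.49. Without the second CtbpDKO library, or without either CtbpDKO_Dppa2KO library, the count that fell was 17. The 5 that rose were Aire, Clstn3, Lncenc1, Mtus2 and Spn. Lncenc1 went from 19.8 and 27.3 CPM to 84.1 and 67.0 (1.83 ± 0.17, edgeR adjusted p = 2.79e-05). In the zinc finger run 9 of 12 fell, with a median of -0.96, Rex2 from 31.5 and 50.1 CPM to 18.3 and 18.5 (-0.98 ± 0.18, edgeR adjusted p = 0.00312). Among the furthest falls were those of the 3 endoderm genes, with Cubn from 13.8 and 17.3 CPM to 2.51 and 0.706 (-3.21 ± 0.41, edgeR adjusted p = 0.00029) and Dab2 from 15.2 and 19.6 to 2.91 and 2.04 (-2.68 ± 0.21, edgeR adjusted p = 5.94e-06). Of the endoderm list 16 of 27 tested genes fell and 1 rose, and its summed level was 597 to 687 CPM, against 1148 to 1219 in CtbpDKO. These 2 comparisons share the CtbpDKO_Dppa2KO libraries.

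Over the time course a part of the members was lower on the days when Ctbp2 transcripts were high. Ctbp2 had 1184 and 1328 reads on day 0, 11119 and 11231 on day 3, 8466 and 6774 on day 9, 866 and 1268 on day 12 and 926 and 1646 on day 18, while Ctbp1 had at most 4. From day 0 to day 9, 35 of 82 members fell, where 3.73% of the 20612 genes tested fell, with a median log2 fold change of -0.79, while 19 of the 82 had a fitted change above 0. Without the first day 0 library the count was 20, and without the first or the second day 9 library it was 21 or 23. The count that rose was 0, where 3.6% of all genes rose, with 2 at an unadjusted p under 0.05 and 0 by DESeq2. From day 9 to day 18, 41 members rose, where 5.03% rose, and 2 fell, Hspa1a and Gm20481, where 3.86% fell, with a median of 0.77. The 2 comparisons share the day 9 libraries. Day 18 against day 0, which leaves them out, had a median mean ratio of 1.06, with 65 of 82 members, or 79.3%, at 0.8 or more, close to the 81.4% of all genes tested.

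**Figure D5:**
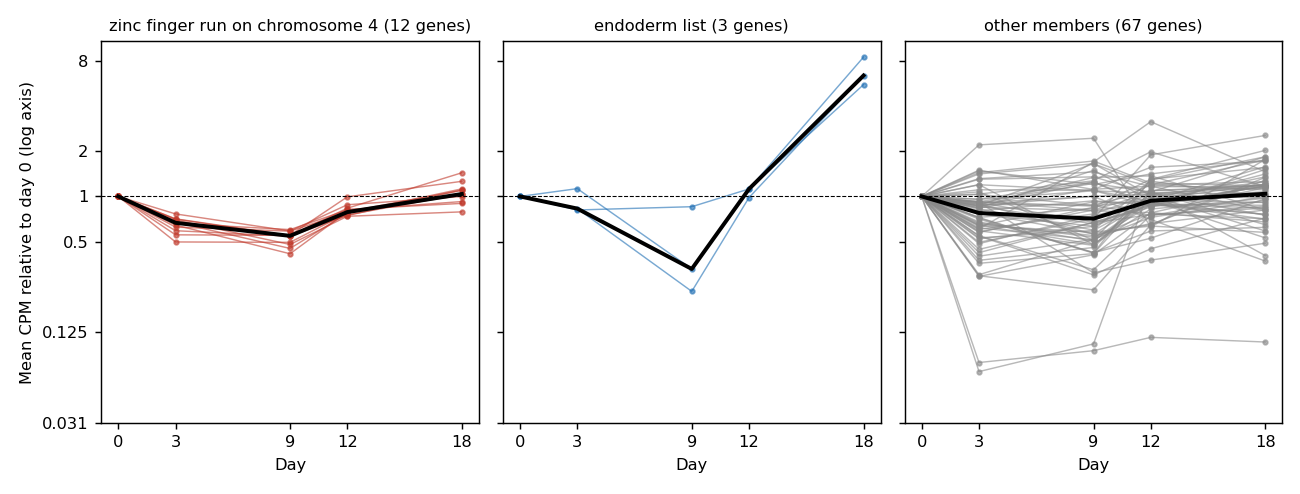
Mean CPM of each of 82 members on days 0, 3, 9, 12 and 18 relative to its day 0 mean, on a log axis, with 1 thin line per gene and a thick black line for the median, in panels for the zinc finger run, the endoderm list and the other 67. Over all members the median ratio is 0.721 on day 3, 0.617 on day 9, 0.899 on day 12 and 1.06 on day 18, and the 3 endoderm list members reach 5.54 to 8.44 on day 18.

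Rex2 had 69.8 and 53.6 CPM on day 0, 38.3 and 41.3 on day 3, 25.6 and 25.7 on day 9, 51.4 and 46.3 on day 12 and 58.1 and 77.3 on day 18. It fell by 1.35 ± 0.14 on the log2 scale to day 9 (edgeR adjusted p = 6.42e-05) and rose by 1.48 ± 0.14 to day 18 (edgeR adjusted p = 2.04e-05). In its run 11 of 12 genes fell and 11 rose again, with medians of -0.94 and 1.04. Among the widest swings was that of Lgals3, with 42.7 and 51.8 CPM on day 0, 3.00 and 3.47 on day 3, 5.18 and 4.70 on day 9, 63.6 and 49.5 on day 12 and 79.7 and 85.5 on day 18 (-3.35 ± 0.16, edgeR adjusted p = 4.37e-08, then 4.14 ± 0.16, edgeR adjusted p = 4.88e-09). Myo1g went from 24.2 and 24.2 CPM to 6.74 and 4.83 on day 9 and to 33.3 and 31.5 on day 18, and Aire from 18.2 and 13.8 to 6.02 and 3.58 and then to 9.84 and 13.1. Myo1g was back above day 0 on day 18, while Aire was still below it.

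Some members did not follow. AU018091 had 77.0 and 70.9 CPM on day 0 and 72.2 and 55.2 on day 9 (-0.31 ± 0.12, edgeR adjusted p = 0.169), Clstn3 had 8.11 and 10.4 and then 10.9 and 9.31 (0.04 ± 0.17, edgeR adjusted p = 0.936), and Kbtbd11 had 27.2 and 31.4 and then 33.4 and 30.4 (0.03 ± 0.12, edgeR adjusted p = 0.912). Cdkn1c stood at 7.71 and 7.45 CPM on day 0, 10.4 and 6.46 on day 9 and 13.7 and 12.2 on day 18, and rose between the last 2 (0.71 ± 0.19, edgeR adjusted p = 0.033), while Phlda2 fell (-1.34 ± 0.22, edgeR adjusted p = 0.00234) and rose (1.59 ± 0.22, edgeR adjusted p = 0.000529). The endoderm genes went past their start. Cubn had 3.03 and 4.61 CPM on day 0, 1.53 and 0.991 on day 9 and 33.5 and 31.0 on day 18 (4.75 ± 0.28 from day 9, edgeR adjusted p = 5.59e-07), and Dab2 had 4.68 and 7.62, then 5.42 and 5.09, then 34.0 and 34.1 (2.77 ± 0.20, edgeR adjusted p = 2.45e-06). From day 9 to day 18, 17 of 26 tested endoderm list genes rose and 1 fell, and the list's summed level was 848 to 994 CPM on day 0, 1165 to 1234 on day 9 and 1562 to 1692 on day 18.

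The 40 genes that were lost in DuxKO and did not return in Ctbp_DuxTKO give a side-by-side view of the same libraries. In the second DuxKO measurement 16 of 39 tested fell and 2 rose, with a median log2 fold change of -0.79, where the members had 63 of 81 and -1.98. On Pramel7 overexpression without Dux 18 of 39 rose and 1 fell, with a median of 1.41, where the members had 67 of 81 and 2.58. In P7KO 1 fell and 7 rose, with a median of 0.12, where 41 of 81 members fell and the median was -1.11. From day 0 to day 9, 3 of 38 fell and 1 rose, with a median of 0.01, where 35 of 82 members fell and the median was -0.79. Both sets were split by their Ctbp_DuxTKO values, and no test of the difference between the sets was made.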

How the data were processed

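RNA-seq counts per gene were used as the authors deposited them, in 3 tables of whole-number counts. The submitters' processing notes name Trim Galore, HISAT2, featureCounts and the mm10 build, with no order or settings. The strand setting and annotation are not given in the sources used here, so reads of a gene and an overlapping antisense gene may not be separated, and copies in gene families may share reads. The libraries of reduced representation bisulfite sequencing were not analysed here. Each table was fitted on its own in R 4.3.3 with edgeR 4.0.16: genes kept by filterByExpr (21193 in the genotype table, 20161 in the Pramel7 table and 20612 in the time course), TMM scaling, group as the only term, all libraries of the table in 1 fit, the quasi-likelihood F test and Benjamini-Hochberg adjustment over all genes tested. A call is an adjusted p under 0.05. Fold changes are log2 with a prior count of 0.125, errors are standard errors, and CPM is on the column total. DESeq2 1.42.0, other scalings, no filter, fits on only the groups compared, a replicate block, a minimum log2 change of 1 and leaving out each library were the alternatives. The interaction and the fits with WT libraries 3 and 4 alone, or 5 and 6 alone, were added after the data were seen. The fits were tested on simulated counts first. With 2 libraries in most groups, precision is limited by their number. Library totals were 10123058 to 36025046.

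The members, gene lists and comparisons were chosen with earlier results of these data known. Members named in the text are the 15 with the highest WT mean, those in a list, the genes next to a threshold of the rule, the longest runs of neighbours, and up to 5 per direction and comparison with the largest change among those called, not overlapping between groups and at 50 counts or more on average. Others are given as members of runs, as examples of no change, or as chosen after their values were seen. The gene lists were DNA methylation machinery, 2-cell state, germline and meiosis, naive pluripotency, core and formative pluripotency, primitive and visceral endoderm, trophoblast, imprinted, epithelial and keratin, mesenchymal and mesoderm, fibroblast and smooth muscle, neural, interferon and antigen presentation, Wnt, Nodal and Bmp, glycolysis, Hox, p53 targets, CtBP partners and 2-cell state repressors, and adhesion and muscle targets of the CtBP complex. Promoters and gene positions are from RefSeq (GRCm38.p6), matched by symbol for 71 of 82 members.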

Additional observations from a re-analysis of the deposited data

Results flagged for a closer look

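The change on Pramel7 overexpression differed between the 2 backgrounds, cells labelled WT and cells labelled DuxKO. An interaction term, added after the data were seen, was past the threshold and above 0 in 50 of 81 members, as in 4.27% of all genes tested (edgeR quasi-likelihood test, adjusted p under 0.05). The members' median was 2.06 on the log2 scale. The term was past the threshold and below 0 in 0 members, where 3.23% of all genes were, with 0 at an unadjusted p under 0.05 and 0 by DESeq2. In 5 members the fitted term was below 0 without passing. All 12 genes of the chromosome 4 run were among the 50, with Rex2 at 2.65 ± 0.26 (edgeR adjusted p = 9.38e-05). The furthest were Phlda2 at 5.93 ± 0.34 (edgeR adjusted p = 2.19e-06), Lncenc1 at 5.83 ± 0.46 (edgeR adjusted p = 2.56e-05) and Clstn3 at 5.30 ± 0.44 (edgeR adjusted p = 3.19e-05). The endoderm genes did not pass, with Cubn at -0.33 ± 0.66 (edgeR adjusted p = 0.822), Dab2 at -0.45 ± 0.34 (edgeR adjusted p = 0.479) and Srgn at an edgeR adjusted p of 0.556. The term uses the DuxKO libraries, where most members are low, and the 4 uneven WT libraries. The change in DuxKO against WT, with a median of -1.98 over the members, enters the term with its sign turned. The rule chose the members by such a fall in other libraries, so the 50 partly restate that choice. With WT libraries 3 and 4 alone 52 members passed above 0 and 1 below, and with 5 and 6 alone 53 and 0. Pramel7 itself stood at 48.4 and 58.1 CPM in DuxKO_P7OE and at 14.4 and 25.3 in P7OE, so its level and the Dux label cannot be told apart.

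Among the 4 WT libraries of the Pramel7 set, 1 library stood apart in 3 of 81 members by Dixon's criterion, which chance passes in about 1 group in 20. Hspa1a, a heat shock protein, was highest in the fifth WT library at 14.4 CPM, Myo1g was highest in the sixth at 2.72 CPM, and the long non-coding RNA Platr4 was lowest in the third at 3.46 CPM.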

How the results depend on the processing

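The number of members was 81 with TMM-scaled CPM, 86 without structural RNAs in the totals, 59 when every library had to meet the thresholds, and 80 to 91 when 1 library was left out. The genes themselves changed more than these numbers do. Of the 82 members, 69 stayed without the first and 69 without the second WT library. Without the first or second DuxKO library 72 and 74 stayed, and without the first or second Ctbp_DuxTKO library 77 and 79. Counts of members called kept within 1.5 times of the values given in all alternatives run, except these. With a minimum log2 change of 1, fewer were called: 27 higher from day 9 to day 18 and 1 lower, 22 lower from day 0 to day 9, 5 lower in CtbpDKO_Dppa2KO against Dppa2KO, 13 lower and 2 higher against CtbpDKO, and 1 higher in P7KO. DESeq2 called 3 higher in CtbpDKO_Dppa2KO against CtbpDKO. Without a filter 4 were higher in P7KO, and with only the groups compared 1 was, and 1 was lower from day 9 to day 18. With WT libraries 3 and 4 alone, chosen after the data were seen, 7 were higher in P7KO, 1 in DuxKO, and 1 was lower in the interaction, and with 5 and 6 alone 1 was higher in P7KO. Leaving out 1 library gave 0 to 3 higher and 24 to 42 lower in P7KO, 3 to 4 higher and 17 to 25 lower against CtbpDKO, 20 to 34 lower from day 0 to day 9, and 0 to 1 lower from day 9 to day 18.

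Replicate numbers did not pair the libraries (correlations of same-numbered deviations from -0.413 to 0.181 over all pairs of groups, and from -0.082 to 0.102 for WT and DuxKO of the Pramel7 set). With a replicate block, 1 member was higher in DuxKO against WT. No paired analysis was possible because the groups share no replicate numbers in DuxKO_P7OE against DuxKO, P7OE against WT, P7KO against WT and the interaction. Of 2363 alternative values for named members, 2206 kept direction and call, 157 kept direction and lost the call, 134 of them with 1 library left out, and 0 reversed. Members near 2 CPM rest on few reads, and small changes there were not detectable at this depth.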
